A study of Caenorhabditis elegans with 2 samples.

Results

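The cuticle collagen genes of Caenorhabditis elegans are the 174 nuclear protein-coding genes whose name starts with col- (156 genes) or that belong to a set of 18 dpy, rol, sqt and bli genes known from mutants of body shape. They were taken by name from the Ensembl annotation of WBcel235, which is the same assembly as ce11, and make up 174 of 19973 nuclear protein-coding genes. No measured value entered the choice. Chromosome IV held 44 of them, II and V 32 each, X 30, I 23 and III 13.

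Cuticle collagens are secreted by the hypodermis, the skin of the worm, and are built around runs of Gly-X-Y triplets in which a glycine is followed by residues that are often proline. Their chains are hydroxylated, trimerise, are cut by proteases and are cross-linked into the cuticle, which is made anew at each molt. Some build the annular furrows of the cuticle and some the struts between its layers, and their mutants are dumpy (short and fat), roller (helically twisted) or blistered. In young adults the last molt is past and the adult cuticle, which has its own collagens such as COL-19, is in place.

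HLH-26 belongs to the REF-1 family of basic helix-loop-helix (bHLH) proteins. It was mapped by chromatin immunoprecipitation and sequencing in whole animals, with an antibody against GFP. There were 2 samples, biological replicates 1 and 2 of a single group. Both were young adults (66 hours) of strain RW12174, which carries the CRISPR insertion st12174, made of hlh-26::GFP and an unc-119(+) marker with loxP sites, in an unc-119(tm4063) III background, grown from larvae that had been starved at L1 after bleaching. Chromatin was sonicated to 200 to 800 bp. With no second condition, the comparisons below set the collagen genes beside other protein-coding genes in the same peak lists and replicate 1 beside replicate 2. The worms were taken whole, so the peaks cannot be given to the hypodermis or to any other cell type.

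Values come from lists of peaks, each with a summit, a signal (the peak caller's own measure, with no stated scale, used here only within a list) and a score for how well the peak's rank recurs between compared lists. The main ranked list holds 35301 peaks, most of them 524 bp wide, and 90 of these are in the authors' conservative thresholded list. The other ranked list of the series holds 35468 peaks (75 thresholded), that of replicate 1 alone 19393 (21 thresholded) and that of replicate 2 alone 24293 (27 thresholded). A ranked peak is thus a candidate, and most ranked peaks fell far short of the authors' threshold. Read counts are not part of the lists, and the depth behind a peak is therefore unknown. A gene was counted as having a peak when a peak overlapped the gene or its 500 bp upstream by at least 1 bp, and intervals below are exact 95% intervals that cover counting error over genes or peaks only.

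The bases under the summits of the strongest collagen peaks show where in the genes they lie. The sequences below run 50 bp to either side of the summit on the coding strand of the gene, 5′ to 3′, in ce11. Those of col-19, col-108, col-20 and col-43 are the collagen genes with a thresholded peak, and dpy-17 and dpy-13 are the dpy, rol, sqt and bli genes of highest signal. Capitals mark matches to the bHLH motif CACNAG or to the bHLH motif CAGCTG on either strand. They lie at chrX:422259-422359 (plus strand), chrIV:1769230-1769330 (plus), chrII:4870188-4870288 (minus), chrV:8050035-8050135 (minus), chrIII:5107535-5107635 (plus) and chrIV:4236071-4236171 (plus).
col-19: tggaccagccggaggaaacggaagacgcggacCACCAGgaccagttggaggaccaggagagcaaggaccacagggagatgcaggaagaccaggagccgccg
col-108: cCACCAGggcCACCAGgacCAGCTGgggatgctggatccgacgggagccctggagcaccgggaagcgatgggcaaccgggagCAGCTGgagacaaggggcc
col-20: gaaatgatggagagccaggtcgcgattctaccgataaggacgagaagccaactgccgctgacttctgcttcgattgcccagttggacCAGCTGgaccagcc
col-43: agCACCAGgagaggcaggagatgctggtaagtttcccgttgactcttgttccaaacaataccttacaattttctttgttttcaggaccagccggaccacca
dpy-17: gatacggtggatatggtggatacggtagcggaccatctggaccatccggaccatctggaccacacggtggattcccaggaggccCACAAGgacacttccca
dpy-13: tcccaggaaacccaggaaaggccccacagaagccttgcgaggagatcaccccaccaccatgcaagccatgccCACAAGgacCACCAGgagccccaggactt
In 5 of these 6 windows the summit lay in a coding exon, and in col-43 it lay in an intron flanked by coding sequence. The letters GGACCA, a glycine codon followed by a proline codon where they are in frame, occur in each of them. Their GC content was 64.4% in col-19, 70.3% in col-108, 56.4% in col-20, 47.5% in col-43, 58.4% in dpy-17 and 61.4% in dpy-13. Over all collagen peaks the median GC content of such windows was 54.5%, against 41.6% for the other nuclear peaks of the main ranked list.

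The name of the set was checked against the proteins that the genes encode. In 171 of the 174 genes at least 20% of the residues of the translated longest coding sequence lay in runs of 4 or more Gly-X-Y triplets (median 49.7%, median length 304 residues). The exceptions were bli-1 (15.2%), col-163 (19.9%) and col-17 (0%), whose Ensembl coding sequence is in another reading frame than the one RefSeq gives. One gene with the col- name, col-99, is known for a membrane-bound collagen of the nervous system rather than for the cuticle, and was kept under the rule.

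Collagen genes carried ranked peaks more often than other protein-coding genes. In the main ranked list 135 of 174 had one (77.6%, 70.7 to 83.5%), against 56.7% of the 19799 other genes and 56.8% of all protein-coding genes. In the other ranked list of the series it was 132 (75.9%, 68.8 to 82.0%), against 56.6% of other genes and 56.8% of all. Replicate 1 alone had peaks on 118 collagen genes (67.8%, 60.3 to 74.7%), against 42.1% of other genes and 42.3% of all. Replicate 2 alone had them on 124 (71.3%, 63.9 to 77.9%), against 47.6% and 47.9%. In each of these 4 lists the lower bound for the collagen genes lay above the share of the other genes. The col- genes alone gave 120 of 156 (76.9%) in the main ranked list.

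**Figure D1:**
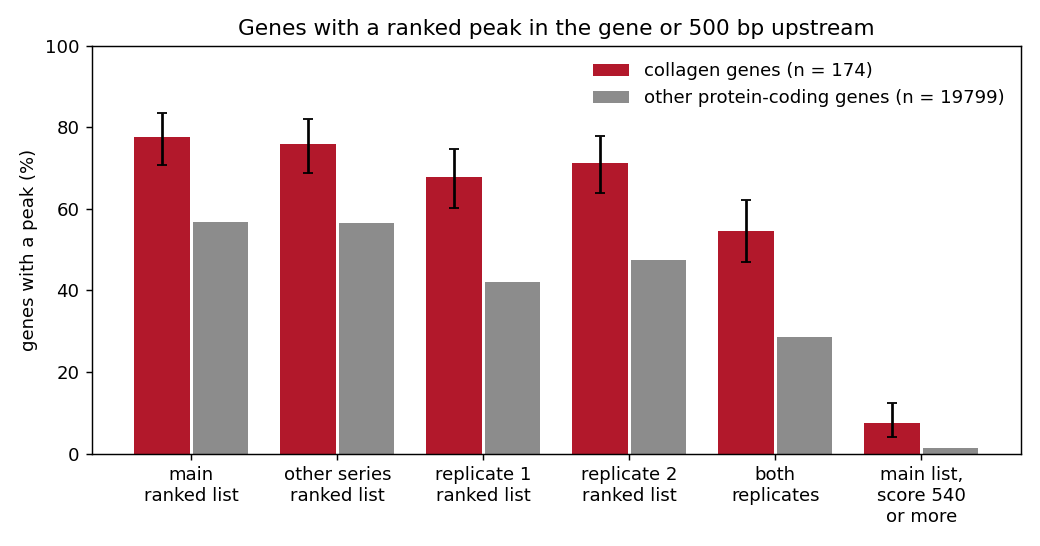
Share of genes (%) with a ranked peak in the gene or its 500 bp upstream, for 174 collagen genes (red, with exact 95% intervals) and 19799 other protein-coding genes (grey), in each list, in both replicates, and at a minimum score of 540 in the main list. The red bar is the higher one of each pair, from 77.6% against 56.7% in the main ranked list to 7.47% against 1.24% at the stricter score.

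Genes of the set with a peak usually had more than 1. In the main ranked list 31 collagen genes had 1 peak, 54 had 2, 32 had 3, 12 had 4, 5 had 5, and col-99, whose window of 10446 bp is the longest of the set, had 9. The remaining 39 had none. Several peaks per gene were not particular to the set. Pairs of gene and overlapping peak numbered 317 over the 135 collagen genes with a peak, and 32891 over the 11217 other genes with one. There were 310 peaks on collagen genes in all, and 7 of them were shared by neighbours, namely col-46 and col-47, col-159 and col-160, or col-44 and col-9. Collagen genes were short, with a median window of 1724 bp against 2540 bp for other genes, so the density of peaks was counted as well. Peaks numbered 9.05 per 10 kb of collagen windows (counting interval 8.07 to 10.1), against 4.14 per 10 kb for other protein-coding genes and 3.52 per 10 kb over the nuclear genome. In replicate 1 the densities were 6.13 per 10 kb (5.33 to 7.02) against 2.30 for other genes, and in replicate 2 they were 6.80 (5.95 to 7.73) against 2.86. Counting overlapping peaks once left 172 regions on collagen genes, 5.02 per 10 kb against 2.37 for other genes.

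The collagen peaks were also among the stronger ranked ones. The strongest peak of a collagen gene stood at a median percentile of 90.5 of signal within the main ranked list (quartiles 78.1 and 97.4, 95% interval of the median 87.9 to 94.7, 135 genes), against 74.9 for the 11217 other genes with a peak. It was 87.3 against 69.6 in replicate 1 and 87.2 against 71.3 in replicate 2. Peak by peak, median signal in the main list was 31.9 on collagen genes and 25.9 elsewhere in the nucleus. The top 10% of the main list by signal held 79 of the 310 collagen peaks (25.5%) and 9.83% of the other nuclear peaks.

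Few of these peaks passed the authors' threshold. In the main thresholded list 3 collagen genes had a peak (1.72%, 0.357 to 4.96%), against 0.379% of other genes and 0.391% of all. In the other thresholded list 1 did (0.575%, 0.0145 to 3.16%), against 0.328% of other genes and 0.330% of all. The replicates' own thresholded lists held no collagen gene (0 of 174, upper exact limit 2.10%), where 0.0354% and 0.0606% of other genes and 0.0350% and 0.0601% of all protein-coding genes had a peak in replicates 1 and 2. At a minimum score of 540, which corresponds to an irreproducible discovery rate of at most 5.01%, 13 collagen genes had a ranked peak (7.47%, 4.04 to 12.4%), against 1.24% of other genes and 1.29% of all. The threshold itself is a score of 830, or a rate of 1.00%. Just inside it col-20 scored 837 (0.964%), and just outside it col-165 scored 772 (1.38%) and col-103 scored 710 (1.95%).

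The strongest peak of the set lay on col-19, the adult-specific cuticle collagen that is a standard marker of the larva-to-adult switch. It ran from 422047 to 422570 on X, with the summit at 422309, 602 bp after the gene start and in a coding exon. Its signal was 96.2 in the main ranked list (rank 45 of 35301, score 1000), with 46.4 in replicate 1 (percentile 99.3) and 50.7 in replicate 2 (percentile 99.8). The gene ZK1193.2 also overlaps that summit. This peak was in the main thresholded list but scored 595 in the other series list, under the threshold there.

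On col-108 a thresholded peak (IV, 1769018 to 1769541) had its summit in a coding exon 692 bp after the start. The main-list signal was 85.1, and the gene's strongest peaks in the replicates had 47 in replicate 1 and 43.1 in replicate 2. The thresholded peak on col-20 (II, 4869976 to 4870499) lay in a coding exon 553 bp after the start, with a signal of 79.8 and replicate signals of 45.2 and 35.8. On col-43 the peak (V, 8049823 to 8050346) passed the threshold in the other series list only, with a score of 895 there and 610 in the main list. Its signal was 81.4, its summit lay in an intron 826 bp after the start, and the replicates gave 32.6 and 42.9, at percentiles 92.5 and 99.5. For all 4 genes the strongest peak was in the top 10% of each replicate's own list. None of the 4 main-list peaks held its summit in the 500 bp upstream of the gene.

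A further gene, col-94, had thresholded peaks close by but none in its window in any list. They lay 1062 and 1278 bp outside it, beyond the upstream side, with signals of 108 and 51.0.

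Further genes followed in signal. The peak of col-181 (signal 78.1) had its summit past the 3′ end of the gene, inside a tRNA gene, so it is not a peak on the collagen sequence itself. The peak of signal 75 that col-44 and col-9 share had its summit in col-9. Summits in coding exons followed for col-105 (signal 75.1), dpy-17 (73.3), col-176 (73.0), col-81 (71.2), col-165 (70.4), dpy-13 (68.6), col-68 (68.0), col-2 (67.1), a collagen known from dauer larvae, col-71 (66.8), col-142 (66.6), col-133 (66.0), col-145 (65.6) and col-163 (64.3). The last of the 25 strongest were col-85 (63.6), col-8 (63.2), col-156 (62.7), col-186 (62.0) and col-99 (61.6). Of these, col-85, col-8 and col-99 had their summits in introns, and a tRNA gene lay under the peaks of col-85 and col-99. For some of this group the ranked list of a replicate had no peak on the gene. That of replicate 1 had none on col-2, and that of replicate 2 had none on col-44 or col-156. The main-list peak of col-44 has its summit in col-9, and replicate 2 did have a peak on col-9 (signal 25.7, percentile 89.4).

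The 18 genes known by body shape were counted by the structure or mutant form they are known for. All 6 furrow collagens, which shape the circumferential grooves of the cuticle, had a peak in the main list, and 5 had one in both replicates. Beside them stand 77.6% of all collagen genes and 56.8% of all protein-coding genes with a main-list peak, and 54.6% and 28.9% with one in both replicates. Among them dpy-3 had a main-list signal of 59.5 (25.7 in replicate 1 and 32.2 in replicate 2) and dpy-2 had 54.0 (32.4 and 22.2). The signals were lower for dpy-7, at 42.2 (19.3 and 20.2), dpy-8, at 36.9 (21.7 and 20.3), and dpy-9, at 32.0 (21.8 and 14.9). For dpy-10, much used as a co-conversion marker in genome editing, the signal was 55.9, with no peak in replicate 1 and 16.4 in replicate 2. All of these summits lay in coding exons.

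Of the 5 other dumpy collagens, 3 had a main-list peak, where 77.6% of all collagen genes and 56.8% of all protein-coding genes did. The main-list signal of dpy-17 was 73.3, with 38.9 in replicate 1 and 32.4 in replicate 2, and the summit lay 255 bp after the start (III, peak 5107323 to 5107846). That of dpy-13 was 68.6, with 32.7 in replicate 1 and 33.6 in replicate 2, and the summit lay 507 bp after the start (IV, peak 4235859 to 4236382). Both stood in the top 10% in each replicate. The strongest peak of dpy-14 (signal 53.6) had its summit upstream, at −423 bp from the gene start, inside the neighbouring gene dpf-3. Only replicate 2 had a peak on dpy-4 (signal 30.4), and dpy-5 had none in any of the 4 lists.

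The rol and sqt genes, whose mutants roll or are squat, all had a main-list peak with its summit in a coding exon. A main-list peak with its summit in any place was found for 77.6% of all collagen genes and 56.8% of all protein-coding genes. Signals in the main list were 45.9 for rol-6, 44.7 for rol-8, 41.8 for sqt-2, 39.6 for sqt-1 and 37.5 for sqt-3, a collagen whose processing by the protease DPY-31 is well studied. The replicates were uneven for sqt-2, with 43 (percentile 98.8) in replicate 1 and 21.6 (percentile 78.4) in replicate 2. They were uneven also for sqt-1, with no peak in replicate 1 and 20.7 in replicate 2. Both strut collagens had a peak in each replicate, where 54.6% of all collagen genes and 28.9% of all protein-coding genes did. The strongest main-list peak of bli-1 had a signal of 34.3 and lay where dph-2 overlaps the gene. There was no main-list peak on bli-2, which had a signal of 32.0 in the other ranked list of the series. It had 24.7 in replicate 1 and 32.7 in replicate 2.

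Within the collagen genes the summits lay in coding sequence. Counting each pair of gene and overlapping peak, 217 of 317 summits were in a coding exon of the gene (68.5%, 63.0 to 73.5%), against 39.5% for other protein-coding genes. Coding exons made up 49.2% of the bases of collagen windows and 33.1% of those of other genes. Introns held 12% of the collagen summits against 33.5%, UTRs 2.84% against 5.63%, and the 500 bp upstream 9.46% against 9.78%. The rest lay past an end of the window. For the strongest peak of each gene the coding share was 108 of 135 (80.0%, 72.3 to 86.4%), against 39.9% for other genes. The coding share of all summits was 67.1% in replicate 1 and 71.2% in replicate 2.

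Along the gene the summits gathered at and just past the middle of the body. Each gene body was cut into 10 equal bins from start to end. Bins 6 to 10 of the collagen genes held 12.6 summits per 10 kb (10.7 to 14.7), against 4.28 for other genes, and bins 1 to 5 held 7.68 (6.24 to 9.34) against 3.79. Bins 6 and 7 were the densest, at 17.3 (12.6 to 23.1) and 18 (13.3 to 24.0) summits per 10 kb. The 500 bp upstream of the collagen genes had 3.45 summits per 10 kb (2.33 to 4.92), against 3.25 for other genes, and bin 1 of the body had 3.84 (1.84 to 7.06) against 3.51. The excess over other genes was thus not seen at the promoter side of the genes.

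**Figure D2:**
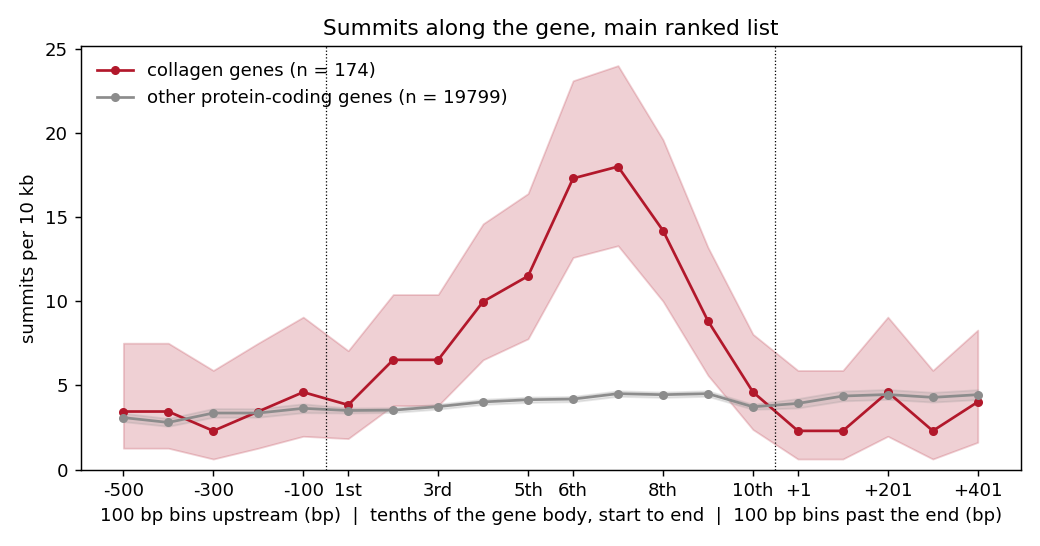
Summits per 10 kb in the main ranked list over 500 bp upstream (100 bp bins), 10 equal bins of the gene body and 500 bp past the end, for 174 collagen genes (red) and 19799 other protein-coding genes (grey), with bands for 95% counting intervals. The red line reaches 18 in bin 7 of the body and stays close to the grey one upstream (3.45 against 3.25).

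Coding bases were then divided, after the data had been seen, into those that encode Gly-X-Y runs and the others. The Gly-X-Y bases made up 23.3% of the collagen windows and held 133 of the 294 summits inside them (45.2%), which is 16.4 summits per 10 kb (13.8 to 19.5). Other coding bases had 9.33 per 10 kb (7.44 to 11.5), introns 5.77 (4.08 to 7.92), UTRs 3.80 (1.74 to 7.21) and the 500 bp upstream 3.45 (2.33 to 4.92). Of the strongest peak of each gene, where its summit lay inside the window, 77 of 128 were in Gly-X-Y bases. In each replicate too the Gly-X-Y bases were denser than the other coding bases, with 11.4 summits per 10 kb of Gly-X-Y bases against 5.89 of other coding bases in replicate 1, and 13.5 against 6.88 in replicate 2. GC content moved with these densities at the top of the order. It was 60.5% in Gly-X-Y bases, 49.1% in other coding bases, 33.0% in introns, 32.8% in UTRs and 35.8% upstream.

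**Figure D3:**
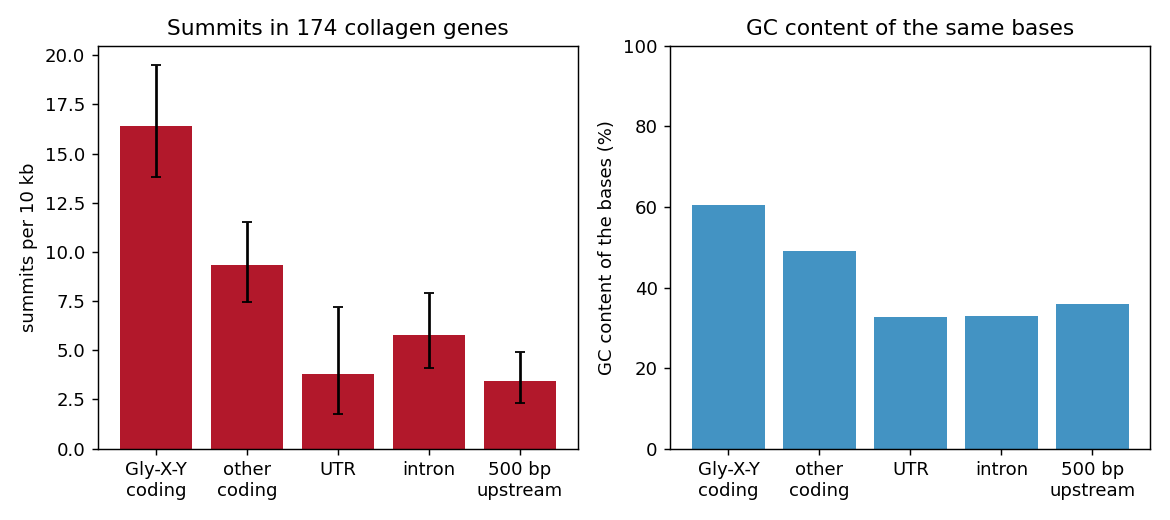
Left, summits of the main ranked list per 10 kb of each class of bases in the windows of the 174 collagen genes, with 95% counting intervals; right, the GC content (%) of the same bases. Gly-X-Y coding bases were highest in both, at 16.4 summits per 10 kb and 60.5% GC, and the 500 bp upstream had 3.45 summits per 10 kb at 35.8% GC.

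Base composition set the collagen genes apart from most genes before any peak was counted. The median GC content of their windows was 45.2%, against 35.8% for other protein-coding genes, and no collagen window was below 35%, where 7870 other genes lay. Genes were therefore compared within bins of GC content, a comparison added after the data had been seen. Peaks per 10 kb in the main list were 4.41 (2.47 to 7.27) on 13 collagen genes of 35 to 38% GC against 4.61 on other genes of that bin, and 8.23 (5.98 to 11.0) against 7.01 at 38 to 41%. They were 9.16 (6.99 to 11.8) against 9.38 at 41 to 44%, 10.1 (8.29 to 12.2) against 10.6 at 44 to 47%, and 10.3 (8.29 to 12.6) against 10.6 at 47% or more. In every one of these bins the value of the other genes lay inside the counting interval of the collagen genes. The same held in all 5 bins of each replicate alone, for example 7.13 (5.48 to 9.12) against 6.72 in replicate 1 and 9.51 (7.58 to 11.8) against 8.99 in replicate 2 at 47% or more. No bin thus showed a difference in density between collagen genes and other genes that was larger than the counting error of the collagen genes.

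**Figure D4:**
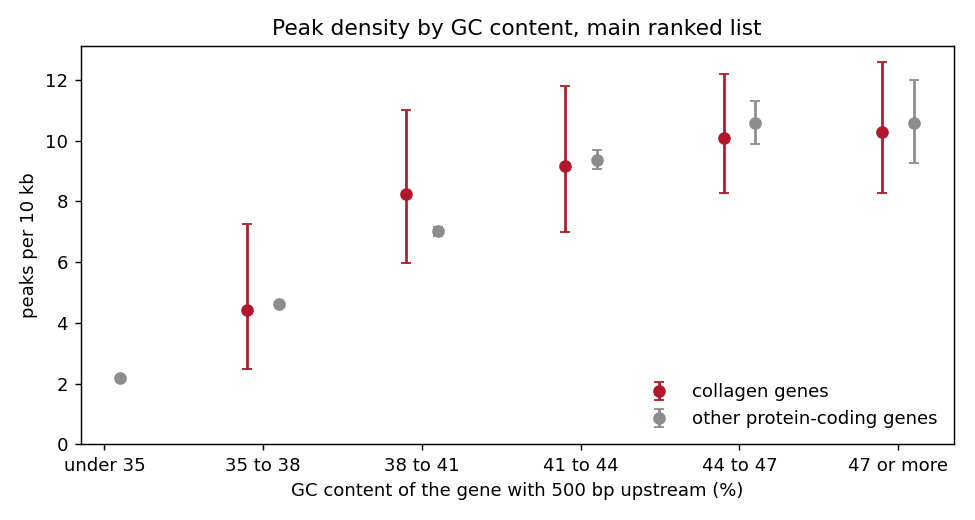
Peaks of the main ranked list per 10 kb of gene window (vertical axis) for collagen genes (red) and other protein-coding genes (grey) in bins of window GC content (%), with 95% counting intervals. Both sets climb with GC content, to 10.3 on collagen genes and 10.6 on other genes at 47% or more, and no collagen gene is in the lowest bin.

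The share of genes with a peak followed the same course, apart from the ends of the range. It was 69.2% of collagen genes against 62.6% of others at 35 to 38% GC, 73.7% against 74.0% at 38 to 41%, 81.2% against 80.2% at 41 to 44%, 81.8% against 83.3% at 44 to 47%, and 74.5% against 58.5% at 47% or more. In that last bin the other genes had shorter windows (median 1256 bp against 1569 bp for collagen genes). In the bins before it they had longer ones. From 35 to 38% upward the medians were 2660 bp against 2514 bp, 2372 against 2130, 2225 against 2008 and 2144 against 1670. Whether window length has a part in these shares was not tested. The percentile of the strongest peak was close in the upper bins, at 88.0 against 86.9, 90.5 against 89.7 and 94.4 against 90.2 from 41 to 44% upward. It was higher on collagen genes in the lower ones, at 90.5 against 73.9 on the 13 genes of 35 to 38% GC, 9 of them with a peak, and 93.0 against 79.2 on the 19 genes of 38 to 41%. Whether GC content has a part in where these peaks were called was not tested.

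Six-base motifs that bHLH proteins can bind were searched on both strands within 50 bp of each summit, namely the E-box CACGTG, its relative CACGCG, then CATGTG together with CATGCG, the E-box CAGCTG, and finally CACNAG, where N is any base. CACNAG, the N-box form bound by hairy-related proteins in flies and mammals, was within 50 bp of 145 of 310 collagen summits (46.8%), against 12.9% of the 34974 other nuclear summits. CAGCTG was near 14.2% of collagen summits against 2.66%, and CACGTG near 5.48% against 2.40%. The others were less frequent on collagen genes, with CACGCG at 0.968% against 1.93%, CATGTG at 2.58% against 3.73% and CATGCG at 0.968% against 2.17%. No 2 of these motifs match the same 6 bases, but neighbouring matches may overlap, and each was counted on its own.

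The coding sequence itself carries these letters. A CCA proline codon repeated ahead of a glycine codon spells CACCAG across the codon joins, as in the col-108 and dpy-13 windows above. At positions spaced 10 bp apart through the Gly-X-Y bases of all collagen genes, 64.6% of windows held CACNAG, and 66.2% of the windows around summits in these bases did. For CAGCTG it was 21.8% of summits and 21.5% of all positions, and for CACGTG 9.02% and 6.37%. In other coding bases the summits had more CACNAG than the positions at large, at 53.6% of 84 summits against 28.7%. Windows of 50 bp to either side can reach into Gly-X-Y bases, and how often they did was not counted. The coding bases of col-17, whose Gly-X-Y share was 0%, are among the other coding bases. Upstream of the genes CACNAG was near 6.67% of 30 summits, against 9.54% of positions. In promoters, from 250 bp before to 50 bp after the gene start, CACNAG was found in 27.6% of collagen genes against 25.2% of all protein-coding genes, CAGCTG in 1.72% against 5.55% and CACGTG in 1.72% against 5.82%. A match is a string of letters and does not show that HLH-26 binds there.

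More collagen genes than other genes had a peak in both replicates, as was the case in each replicate alone. Whether the replicates agree more on collagen genes than these higher shares give by themselves was not tested. Both replicates' ranked lists had a peak on 95 collagen genes (54.6%, 46.9 to 62.1%), against 28.7% of other genes and 28.9% of all protein-coding genes. All 4 ranked lists had one on 90 (51.7%, 44 to 59.4%), against 26.7% of other genes and 26.9% of all. Replicate 1 alone had a peak on 23 further collagen genes, replicate 2 alone on 29, and neither on 27. In 84 genes the peaks of both replicates overlapped each other (48.3% against 22.0%), and in 75 of them by at least 50% of the shorter peak. Over the 95 genes Spearman's rho between the replicates' strongest signals was 0.347, and 0.294 over the 5686 other genes with a peak in both, given as a description since genes of 1 library are not independent. In 24 collagen genes (13.8% against 3.10%) the strongest peak was in the top 10% of both replicates and all 4 lists had a peak. In each replicate alone the strongest peak was in the top 10% for 29.3% of collagen genes against 8.29% of other genes (replicate 1) and for 31.6% against 9.84% (replicate 2).

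Besides col-19, col-108, col-20, col-43, dpy-17 and dpy-13, these 24 were col-33, col-40, col-48, col-68, col-71, col-81, col-84, col-85, col-96, col-103, col-111, col-142, col-162, col-163, col-165, col-176, col-181 and col-185. The pair of percentiles was nearest the top for col-19 (99.3 in replicate 1 and 99.8 in replicate 2) and col-108 (99.3 and 99.5), and was among the lowest for col-185 (93.4 and 91.9). For col-48 it was 99.7 and 94.6, and for col-84 99 and 98.9, although the signal of col-84 in the main list, 57.8, left it outside the 25 strongest.

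**Figure D5:**
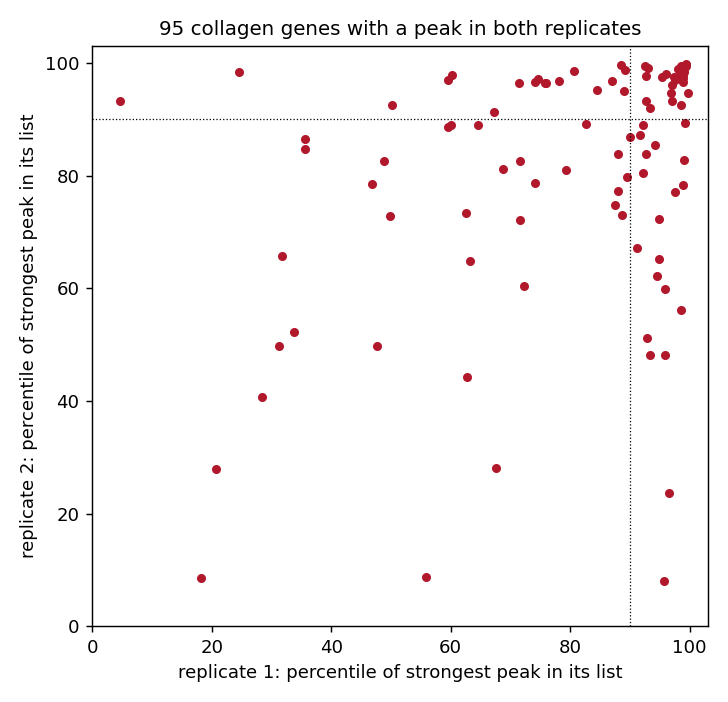
Percentile of signal of the strongest peak within the ranked list of replicate 1 (horizontal) and of replicate 2 (vertical), for the 95 collagen genes with a peak in both; dotted lines mark the 90th percentile. The points gather in the upper right corner but scatter widely (Spearman's rho 0.347), and single genes stand high in 1 replicate and low in the other.

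In 22 of the 174 collagen genes no ranked list had a peak, a smaller share than the 5431 of 19799 among other protein-coding genes. The 22 collagen genes were col-3, col-7, col-12, col-13, col-55, col-62, col-64, col-75, col-78, col-94, col-116, col-117, col-126, col-127, col-137, col-144, col-148, col-154, col-161, col-167, col-169 and dpy-5. Among these 22 genes a median of 48.0% of the 50-base words of the window occurred elsewhere in the genome as well, and 14 had more than 10% of such words. Among the 152 genes with a peak in some list the median was 0%, and 21 had more than 10%. Their GC content was alike, with medians of 44.9% in the 22 and 45.2% in the 152. No source used here says how reads that map to several places were treated, and the part of repeated sequence in the missing peaks was not tested. Under the peaks themselves repeats were rare, with no repeated word in 261 of 310 and more than 10% in 25.

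By chromosome the share of collagen genes with a main-list peak was 87.5% on II, 80.0% on X, 77.3% on IV, 76.9% on III, 71.9% on V and 69.6% on I, against 56.3%, 66.7%, 50.1%, 59.1%, 54.2% and 57.1% of other genes. It was above that of the other genes on every chromosome. Chromosome III differed most between the replicates, with a peak on 8 of its 13 collagen genes in replicate 1 (61.5%, against 46.8% of other genes) and on 11 in replicate 2 (84.6% against 49.3%). On II the shares were 71.9% against 42.9% of other genes in replicate 1 and 87.5% against 46.0% in replicate 2. On V they were 65.6% against 37.3% in replicate 1 and 50% against 43.8% in replicate 2.

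Other collagen genes, and genes that act with the cuticle collagens, were counted in the same way. Of 6 collagens outside the name rule 5 had a main-list peak, where 77.6% of the collagen genes under the rule and 56.8% of all protein-coding genes did. The 5 were let-2 (signal 61.1) and emb-9 (54.8), which encode the type IV chains of basement membranes, the cuticle collagens lon-3 (57.8) and bli-6 (47.9), and cle-1 (47.4). The collagen gene mec-5, needed by touch receptor neurons, had none in that list. Of 14 enzymes and partners that modify or cross-link collagen 8 did (57.1%, close to the 56.8% of all protein-coding genes). They included the disulfide isomerase pdi-2 (56.4), the prolyl hydroxylases phy-3 (51.6) and dpy-18 (39.7), and the thioredoxin-like dpy-11 (51.5), while the dual oxidase bli-3 stood at 22.2. Of 42 other proteins of the cuticle and apical matrix 34 did (81.0%), and 17 had a peak in both replicates, where 28.9% of all protein-coding genes did. The median percentile of their strongest peak was 77.6, against 74.9 for genes outside the collagen set. Of the 42, 2 had a thresholded peak, where 0.391% of all protein-coding genes had one in the main list. One was cut-2, a cuticlin, with a coding exon summit (V, 13415491 to 13416014, signal 92.0, with 52.4 in replicate 1 and 38.8 in replicate 2). The other was cutl-18, whose peak (signal 194) lay over a snoRNA gene in an intron. Of 15 regulators of cuticle collagen genes and body size 12 did (80.0%), led by the heparan sulfate proteoglycan lon-2 (55.0) and by lin-29 (53.0), the zinc finger factor of the larva-to-adult switch that acts upstream of col-19. Both replicates had a peak on 10 of the 15 regulators, and the median percentile of the strongest main-list peak was 76.6. No regulator had a thresholded peak, where 0.391% of all protein-coding genes had one in the main list. Window length and GC content were not compared for these lists.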

How the data were processed

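Peaks on cuticle collagen genes were described from 8 narrowPeak lists of 2 biological replicates (1 group). Per the labels the build is ce11. The authors deposited a ranked list and its thresholded part for each replicate, and 2 such pairs for the series. The deposited score is the −log10 of the global irreproducible discovery rate (IDR), also deposited, rescaled to at most 1000; the largest gap between the columns was 1.00 score units. The signal is the peak caller's own measure as deposited, of unstated scale. The caller, IDR software, versions and control: not given in the sources used here. The main ranked list is the one that holds every line of the series' conservative thresholded list. The 16 columns of the 2 series ranked lists that give values per compared list were not used, because no label ties them to a replicate.

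The WBcel235 gene models are those of Ensembl release 115, and bases were read from the RefSeq copy of the assembly; 12 mitochondrial protein-coding genes were left out. Coordinates are 1-based. Summits were classed in the order coding exon, UTR, intron, upstream 500 bp. Percentiles of signal are within each list. Shares have exact (Clopper-Pearson) 95% intervals and densities Poisson ones. There is no second condition and no test. Collagen membership of proteins was read from translated Ensembl coding sequences in place of the protein table that had been planned.

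The genes named in the text are those with a thresholded peak, the next by signal in the main list to 25, the 18 dpy, rol, sqt and bli genes, those in the top 10% of both replicates with a peak in all 4 lists, and listed genes with a thresholded peak. Genes without any peak, the genes just outside the score threshold and further examples from the lists were named after their values were seen. The members, lists and motifs were chosen with earlier results of these data known. The alternatives tried were other windows, overlaps, peak lists, scores and members, each replicate alone, merged peaks, and, added after seeing the data, GC bins, genes with few repeated words and the division of coding bases. On simulated peaks planted on 200 genes of X, the overlap step found 200. Python 3.11.15, numpy 2.4.6, pandas 2.3.3, scipy 1.17.1 and matplotlib 3.10.9 were used.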

Additional observations from a re-analysis of the deposited data

How the results depend on the processing

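The number of collagen genes with a ranked peak, 135 of 174 (77.6%), stayed between 118 and 136 under 10 of 12 alternatives, and fell to 13 with a score of 540 or more and to 3 in the thresholded list, where fewer peaks are counted. Among the 10, fewer genes were counted for the col- genes alone (120 of 156, 76.9%) and for genes with at most 10% repeated words (119 of 139, 85.6%). The number with a peak in both replicates, 95, stayed between 75 and 102 under all 5. The median percentile of the strongest peak, 90.5, was 87.2 to 87.3 with 1 replicate left out and 90.5 to 91.3 under the other 6. Density, 9.05 peaks per 10 kb, was 11.1 on the gene body alone, 7.88 with 1000 bp upstream, 5.02 with overlapping peaks merged, and 6.13 to 6.80 with 1 replicate left out, where the lists are shorter. The coding exon share, 68.5%, was 80.0% for the strongest peak of each gene and 66.4 to 71.2% in the other lists. The number with a thresholded peak, 3, was 1 in the other series list and 0 to 0 with 1 replicate left out. In all 10 alternatives of window, overlap, list or score for which other genes were counted too, the share of collagen genes with a peak was above theirs. Within bins of GC content it was not always so. The share was below theirs at 38 to 41% GC (73.7% against 74.0%) and at 44 to 47% (81.8% against 83.3%), and above theirs in the other bins that held collagen genes. No paired analysis was possible because there is 1 group. Peak lists without read counts do not show what depth limits.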

Other observations

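Outside the rule, 56 other protein-coding genes encode proteins with at least 20% of residues in Gly-X-Y runs, a group formed after the data had been seen. It includes collagens named above. The strongest main-list peaks of let-2, emb-9, lon-3 and bli-6 stood at percentiles 98.1, 96.3, 97.4 and 92.6, and mec-5 had none. The group was not counted without these collagens. Of the 56 genes 33 had a main-list peak (58.9%, near the 56.8% of all protein-coding genes) and 15 of the 56 had a peak in both replicates, where 28.9% of all protein-coding genes did. Among those with a main-list peak the median percentile of the strongest peak was 82.4, against 74.9 for protein-coding genes that are not cuticle collagen genes. For those of the latter with 38 to 41% GC it was 79.2. The windows of the 56 genes were short (median 1178 bp) with a median GC content of 38.6%. Their Gly-X-Y coding bases had 13.7 summits per 10 kb (counting interval 8.93 to 20) at 59.0% GC, their other coding bases 9.81 (5.99 to 15.1) at 49.9%, their introns 7.57 (4.56 to 11.8) at 29.8% and their 500 bp upstream 5.00 (2.73 to 8.39) at 34.2%. In these genes CACNAG was near 50% of the 26 summits in Gly-X-Y bases, where 29.9% of positions spaced 10 bp apart held it. The E-boxes CAGCTG and CACGTG were near none of these summits. CAGCTG was near 0% of these summits against 5.78% of positions, and CACGTG near 0% against 2.86%. With 26 summits, shares of positions as low as these give no direction.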
